A study of Mus musculus with 30 samples.

Results

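The 9 Notch pathway genes followed here were the receptors Notch1, Notch2, Notch3 and Notch4, the ligand Jag1 and the target genes Hey1, Hey2, Heyl and Hes1. The rule that selects them uses gene names and no measured values, although the genes were picked with earlier results of these data known, and all 9 were found among the 41128 genes counted in aorta and in kidney. All 9 also passed the filter on low counts in both tissues, where 14796 genes were tested in aorta and 15034 in kidney. RNA was sequenced from single male mice with (KO) or without (WT) deletion of the EGF receptor in vascular smooth muscle, fed standard-fat diet (SFD) or high-fat diet (HFD) for 18 weeks from the age of 6 weeks. KO mice carried Egfr flox/flox and a tamoxifen-inducible Cre recombinase under the Smmhc (Myh11) promoter. WT mice carried the same Cre and no loxP sites, and all mice, WT included, received tamoxifen. This promoter drives the Cre in smooth muscle, so Egfr of the other cell types of both organs is outside the model. Aorta libraries came from 3 WT-SFD, 4 WT-HFD, 3 KO-SFD and 4 KO-HFD mice, and kidney libraries from 4 mice per group. The strain label is C57Bl6J, and 3 mice (WT-SFD-1309, KO-SFD-1319 and KO-HFD-1504) gave both organs. Summed over genes, an aorta library held 6403699 to 13052870 counts and a kidney library 16354880 to 28331314. Libraries are named by group and mouse number.

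Notch receptors are membrane proteins activated by ligands, such as Jag1, on a neighbouring cell. Binding leads to cleavage by ADAM proteases and then by γ-secretase, and the released intracellular part joins the DNA-binding protein Rbpj and a Mastermind (Maml) coactivator in the nucleus. There it switches on genes of the Hes and Hey families, which encode transcriptional repressors. In arteries Notch3 is known as the receptor of smooth muscle and Notch4 as a receptor of endothelium, and Jag1 on endothelial cells signals to the adjoining smooth muscle. In the kidney Notch signalling is known from nephron formation and from injured tubules and glomeruli.

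By GENCODE vM21 (GRCm38), Notch1 (ENSMUSG00000026923) lies at chr2:26457903-26516663 on the minus strand, Notch2 (ENSMUSG00000027878) at chr3:98013527-98150361 on the plus strand, Notch3 (ENSMUSG00000038146) at chr17:32120820-32166852 on the minus strand and Notch4 (ENSMUSG00000015468) at chr17:34564268-34588503 on the plus strand. Jag1 (ENSMUSG00000027276) lies at chr2:137081456-137116644 on the minus strand. Among the targets, Hey1 (ENSMUSG00000040289) lies at chr3:8663359-8667256 (minus), Hey2 (ENSMUSG00000019789) at chr10:30832359-30842801 (minus), Heyl (ENSMUSG00000032744) at chr4:123233556-123249875 (plus) and Hes1 (ENSMUSG00000022528) at chr16:30064384-30067796 (plus). All are protein coding, and the counts cover all exons of a gene. Notch1 and Notch3 overlap short genes on the other strand, and the strand setting of the counting is not given in the sources used here. The counts of these neighbours were low: over all libraries of a tissue, Gm13568 had 62 counts in aorta and 1 in kidney, 0610009E02Rik had 103 and 560, and Gm17276, which overlaps Notch3, had 119 and 382.

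The promoter of Hey2 is shown because Hey2 differed most between the organs and was the only member, of the 6 with a RefSeq promoter entry, with a match to the core of the Rbpj binding motif. The 3 members without an entry were the other targets, Hey1, Heyl and Hes1, whose promoters were not searched. Hey2 is therefore set only against the receptors and Jag1. The window runs from 250 bases before to 10 bases after the RefSeq start (GRCm38.p6, minus strand, chr10:30842774-30843033), and capitals mark TGGGAA or its reverse complement TTCCCA, searched on both strands.
Hey2: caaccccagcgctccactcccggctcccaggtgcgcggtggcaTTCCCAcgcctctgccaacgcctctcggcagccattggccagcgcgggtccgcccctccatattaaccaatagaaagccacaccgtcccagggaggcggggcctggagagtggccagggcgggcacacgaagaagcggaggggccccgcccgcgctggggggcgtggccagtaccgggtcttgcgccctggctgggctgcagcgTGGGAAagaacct
The matches start at positions -207 and -3 relative to the start. Of 32851 promoter windows of this length, 22.4% held at least 1 match and 2.97% held 2 or more, so a match by itself is common. A match describes letters and does not show binding.

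Markers of the labelled organs were present. In aorta the summed level of 9 smooth muscle markers, of which 7 had counts and Acta2 was the most abundant, was 10710 to 19196 CPM (counts scaled to the library size with the TMM factors of edgeR), against 129 to 188 CPM in kidney. Cnn1 and Tagln had no counts in either organ and are not analysed here. In kidney the 6 proximal tubule markers, led by Slc34a1, summed to 10092 to 16463 CPM, against 70.9 to 118 CPM in aorta.

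Some libraries stood apart. White adipocyte markers, all 10 with counts and Plin4 the most abundant, summed to 4250 CPM in WT-SFD-1309, 3289 in WT-SFD-1310 and 2814 in KO-SFD-1319, to 1142 in KO-SFD-1452, and to 465 to 602 in the other aortae. The brown adipocyte markers, all 6 with counts and led by Ucp1, were high in the same libraries, with 1194, 703, 601 and 290 CPM against 30.2 to 79.3 CPM elsewhere. Smooth muscle markers were lowest there, at 10710, 13313 and 11585 CPM in WT-SFD-1309, WT-SFD-1310 and KO-SFD-1319 against 15968 to 19196 CPM in the other 11 aortae. All 3 adipocyte-rich aortae were from SFD mice, so the difference in adipocyte RNA between the diets rests mainly on these libraries. The SFD aortae WT-SFD-1445 and KO-SFD-1507, at 517 and 513 CPM, lay within the range of the HFD aortae. Over both genotypes all 10 white adipocyte markers were lower on HFD and 8 were called (edgeR, smallest adjusted p = 0.0208). Other markers moved in the same comparison. Endothelial markers were lower for 9 of 12 (2 called) and venous markers for 4 of 4 (1 called). Cardiac muscle markers were lower for 4 of 4 and Schwann cell markers for 3 of 4 (0 called). Smooth muscle markers were higher for 6 of 7 (0 called). In tissue RNA, fewer cells of a type and less RNA per cell cannot be told apart. Several aortic results are therefore also given without these 3 libraries, which leaves 1 WT-SFD and 2 KO-SFD aortae, and the lone WT-SFD aorta is then assumed to vary like the other groups. In kidney, libraries differed in how long genes stood against short genes, as described with the receptors below.

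Egfr checked the labels. In aorta Egfr was 46.6, 39.4 and 54.2 CPM in WT-SFD and 64.9, 56.9, 51.1 and 56.9 CPM in WT-HFD mice. KO aortae had 26.7, 35.5 and 27.95 CPM on SFD and 27.5, 40.5, 39.6 and 33.3 CPM on HFD. KO and WT aortae did not overlap on either diet, as held for 8.57% of all genes on SFD and 4.18% on HFD. Egfr was lower in KO over both diets by a log2 fold change of -0.67 (SE 0.11, edgeR adjusted p = 0.0141). This call was lost without KO-SFD-1319 (-0.63, edgeR adjusted p = 0.0514) or KO-SFD-1507 (-0.62, adjusted p = 0.0947), and the direction held in both. On 1 diet alone edgeR did not call Egfr. It was -0.64 on SFD (SE 0.17, edgeR adjusted p = 0.547), and -0.34 with library totals in place of TMM. On HFD it was -0.70 (SE 0.14, edgeR adjusted p = 0.129), which DESeq2 called (adjusted p = 0.00482). Kidney Egfr was 39.1 to 58.4 CPM in WT-SFD, 36.9 to 56.5 in WT-HFD, 46.7 to 60.7 in KO-SFD and 40.4 to 45.5 CPM in KO-HFD mice. Over both diets KO and WT kidneys, with their low smooth muscle markers, differed by -0.0016 (SE 0.094, edgeR adjusted p = 0.999).

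To compare genes, CPM was divided by the exon length in kilobases (FPKM). In aorta Heyl was the most abundant of the 9 genes, at 33.7 ± 5.64 FPKM (mean ± SD, n = 14), followed by Notch2 at 25.9 ± 4.05, Jag1 at 16.3 ± 2.63 and Hey2 at 14.05 ± 2.76 FPKM. Notch3 had 9.05 ± 1.504, Hes1 7.35 ± 2.202, Notch1 3.99 ± 0.850, Notch4 3.04 ± 0.505 and Hey1 1.08 ± 0.333 FPKM. Each gene exceeded the next in this order in 9 to 14 of the 14 aortae, and the ranges of neighbouring genes overlapped except for Notch4 and Hey1. The weakest step was Notch3 above Hes1, in 9 of 14 libraries, and with the length of the longest transcript in place of all exons Hes1 passed Notch3 and Hey2 passed Jag1.

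**Figure D1:**
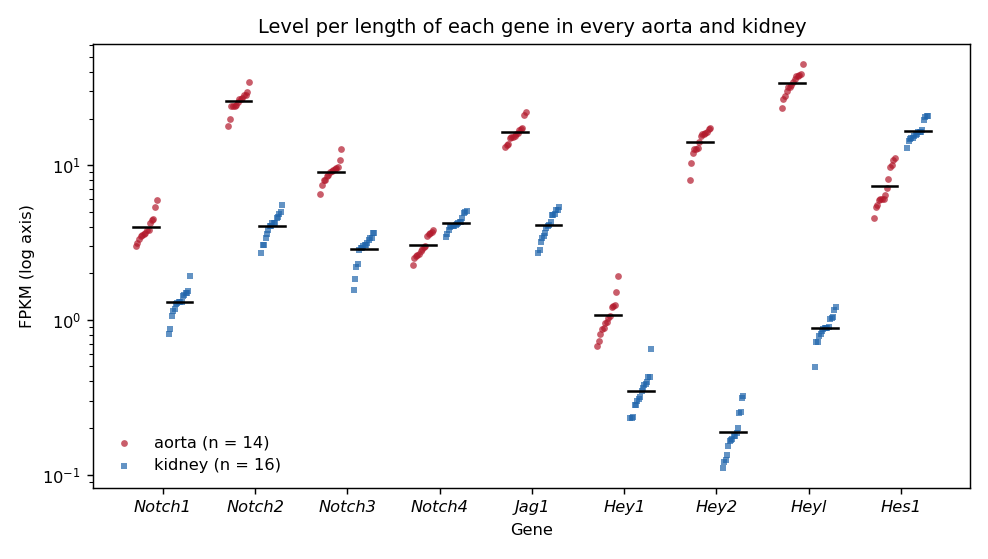
Level of each Notch pathway gene in FPKM (log axis) in 14 aortae (red circles) and 16 kidneys (blue squares), 1 symbol per library, with lines at the means. Heyl and Hey2 stood far higher in aorta, at 33.7 and 14.05 FPKM against 0.891 and 0.189 FPKM in kidney, while Hes1 was higher in kidney, at 16.7 against 7.35 FPKM.

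The order differed in kidney. Hes1, the most broadly expressed target of the 4, came first at 16.7 ± 2.42 FPKM (n = 16) and exceeded every other member in all 16 kidneys. Notch4, Jag1 and Notch2 lay close together, at 4.22 ± 0.468, 4.10 ± 0.848 and 4.04 ± 0.760 FPKM, and their order held in only 9 and 8 of 16 libraries. Notch3 followed at 2.89 ± 0.617 and Notch1 at 1.30 ± 0.266 FPKM. The Hey genes were lowest, with Heyl at 0.891 ± 0.175, Hey1 at 0.348 ± 0.104 and Hey2 at 0.189 ± 0.0645 FPKM. Hey2 rested on 9 to 30 counts per kidney, which limits what can be said of it there.

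Side by side, the mean level in aorta was 74.3 times that in kidney for Hey2 and 37.8 times for Heyl, but only 3.10 times for Hey1. For the receptors the ratio was 6.40 for Notch2, 3.14 for Notch3, 3.06 for Notch1 and 0.720 for Notch4, it was 3.97 for Jag1, and Hes1 had the lowest ratio, 0.441. The organs were sequenced at different places and scaled apart, so these ratios were not tested. Of the summed receptor level, Notch2 made up 61.5 ± 6.28% in aorta and Notch3 21.6 ± 3.38%, with 9.58 ± 2.2% for Notch1 and 7.29 ± 1.42% for Notch4. In kidney Notch4 and Notch2 held like shares, 34.3 ± 4.77% and 32.4 ± 3.16%, beside 23.0 ± 2.73% for Notch3 and 10.4 ± 1.08% for Notch1. Notch2 was thus the main receptor transcript of the aortae, and none of the 4 dominated in kidney.

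The first question was whether HFD altered the pathway in aorta. In WT aortae 0 of 9 members were called at an adjusted p under 0.05 by edgeR's quasi-likelihood test, against 0% of all genes tested. At an unadjusted p under 0.05 it was 1 member, Heyl, against 16.7% of all genes (2464). DESeq2 called 0 members and 666 genes. In KO aortae 0 of 9 members were called, against 0% of all genes, and again Heyl alone passed the unadjusted limit, against 7.47% of all genes (1106); DESeq2 called 0 members and 8 genes. Averaged over the genotypes 0 of 9 members were called, against 3.79% of all genes (561, of which 47 or 0.318% higher and 514 or 3.47% lower), and 2 members, Heyl and Notch3, passed the unadjusted limit, against 18.5%. The share of members was near or below that of all genes in each of these comparisons. The median log2 fold change of the 9 members was 0.010 in WT and -0.031 in KO, against -0.012 and -0.0016 over all genes.

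Heyl, a Hey family repressor expressed in smooth muscle, had the smallest p of the 9 members in all 3 diet comparisons of the aorta; in WT alone the fold change of Hey2 was slightly larger. WT-SFD aortae had 137, 143 and 155 CPM and WT-HFD aortae 198, 192, 184 and 168 CPM. KO-SFD aortae had 119, 175 and 163 CPM, and KO-HFD aortae 230, 164, 192 and 195 CPM. All WT-HFD aortae lay above all WT-SFD aortae, which held for 4.42% of all genes (8.96% in either direction), whereas the KO groups, apart for 7.04% of all genes, overlapped for Heyl, with the lowest value in KO-SFD-1319. The log2 fold change was 0.35 in WT (SE 0.14, edgeR adjusted p = 0.208) and 0.36 in KO (SE 0.14, edgeR adjusted p = 0.604). The difference between the genotypes was 0.0019 (SE 0.19, edgeR adjusted p = 1). Averaged over both, Heyl was 0.36 higher on HFD (SE 0.098), which missed the limit after adjustment (edgeR adjusted p = 0.0602). DESeq2 gave the same 0.36 with an adjusted p of 0.0112, and edgeR called it without WT-SFD-1445 (0.38, adjusted p = 0.0272) or without KO-SFD-1452 (0.43, adjusted p = 0.042). Without the 3 adipocyte-rich aortae the value was 0.24 (SE 0.10, edgeR adjusted p = 0.854), and with the adipocyte, smooth muscle or endothelial markers as covariate it was 0.22 in each case (edgeR adjusted p = 0.853, 0.839 and 0.706). In KO mice alone it was 0.21 without KO-SFD-1319. The part of adipocyte RNA in the higher Heyl level was not tested beyond these fits.

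**Figure D2:**
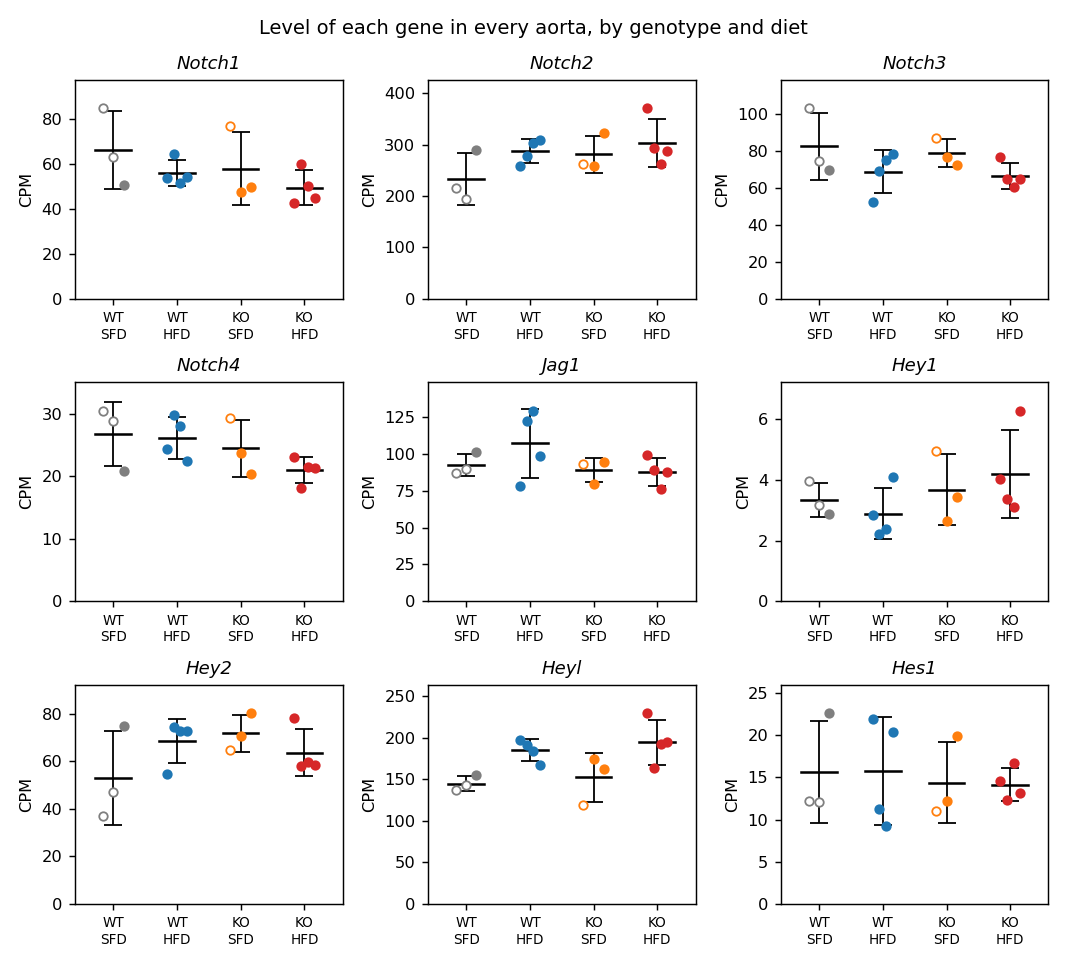
TMM-scaled CPM of the 9 Notch pathway genes in each aorta by group, with the mean and SD as bars; open symbols are the 3 adipocyte-rich aortae. Heyl was 137 to 155 CPM in WT-SFD and 168 to 198 CPM in WT-HFD aortae, and the open symbols were the lowest values of their groups for Heyl and Hey2.

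Hey2, which like Heyl is a repressor of the Hey family, depended on a single WT-SFD aorta. It was 36.8 and 47.2 CPM in the adipocyte-rich WT-SFD-1309 and WT-SFD-1310 and 74.9 CPM in WT-SFD-1445. The WT-HFD aortae had 54.7, 74.3, 72.7 and 72.6 CPM, the KO-SFD aortae 64.8, 70.6 and 80.2 CPM, and the KO-HFD aortae 78.3, 58.0, 59.6 and 58.3 CPM. WT-SFD-1445 was thus within the range of the other groups and the remaining 2 below it. The diet difference in WT was 0.37 (SE 0.20, edgeR adjusted p = 0.374). Without WT-SFD-1445 it was 0.71 (SE 0.17, edgeR adjusted p = 0.0132), a comparison in which both remaining WT-SFD aortae were adipocyte-rich and 1801 of all genes were called. Without the 3 adipocyte-rich aortae the sign turned, to -0.12 (SE 0.19, edgeR adjusted p = 0.947).

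Notch2, the most abundant receptor, had 215 and 194 CPM in the same WT-SFD-1309 and WT-SFD-1310 and 290 CPM in WT-SFD-1445. The WT-HFD aortae had 259, 277, 304 and 308 CPM. KO-SFD aortae had 262, 259 and 322 CPM and KO-HFD aortae 371, 294, 262 and 288 CPM. Again the low values were those of the adipocyte-rich WT aortae, and KO-SFD-1319 was within the range of the other KO aortae. The diet difference in WT was 0.30 (SE 0.15, edgeR adjusted p = 0.343), and 0.49 without WT-SFD-1445 (SE 0.15, edgeR adjusted p = 0.0444), beside the same 1801 genes. Without the 3 adipocyte-rich aortae it was -0.0054 (SE 0.18, edgeR adjusted p = 0.997).

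Notch3, the smooth muscle receptor, tended the other way. It was 103, 74.4 and 69.9 CPM in WT-SFD, 52.3, 69.3, 75.01 and 78.5 CPM in WT-HFD, 87.2, 77.02 and 72.6 CPM in KO-SFD and 76.6, 64.6, 60.4 and 64.6 CPM in KO-HFD aortae. The groups overlapped in both genotypes, and the highest values, 103 and 87.2 CPM, were those of the adipocyte-rich WT-SFD-1309 and KO-SFD-1319. Averaged over genotypes the log2 fold change was -0.25 (SE 0.11, edgeR adjusted p = 0.234). Without the 3 adipocyte-rich aortae it was -0.091 (edgeR adjusted p = 0.946), and it was -0.16 without WT-SFD-1309 alone. Notch1 shared this order. It was 84.9 CPM in WT-SFD-1309 and 76.9 CPM in KO-SFD-1319 against 42.6 to 64.3 CPM in all other aortae.

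Jag1, Hes1 and Hey1 showed no such order. Jag1 was 87.2 to 101 CPM in WT-SFD, 78.3 to 129 in WT-HFD, 79.9 to 94.5 in KO-SFD and 76.0 to 99.3 CPM in KO-HFD aortae. Hes1 ran from 9.26 to 22.6 CPM over all aortae, and in WT its diet difference was 0.010 (SE 0.31, edgeR adjusted p = 0.992). Hey1 was the scarcest, at 2.21 to 6.28 CPM with 19 to 46 counts per library. The interaction of diet and genotype was called for 0 of 9 members, against 0% of all genes; at an unadjusted p under 0.05 it was 0 members against 4.10% of all genes (606), and DESeq2 called 0 members and 2 genes.

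The second question was whether loss of Egfr in smooth muscle altered the pathway in aorta. On SFD 0 of 9 members were called by edgeR, against 0.0811% of all genes (12), and 0 passed the unadjusted limit, against 6.14%. On HFD 0 of 9 were called, again against 0.0811%, and 1 passed the unadjusted limit, against 5.04%. Over both diets 0 of 9 were called, against 0.196% (29 genes), and 0 passed the unadjusted limit, against 6.90%. DESeq2 called 0 members in all 3 comparisons, and 21, 40 and 56 of all genes on SFD, on HFD and over both diets. KO and WT aortae overlapped for all 9 members on both diets, whereas they were apart for 8.57% of all genes on SFD and 4.18% on HFD. Single members differed by log2 fold changes of -0.19 (Notch1) to 0.44 (Hey2) on SFD and of -0.32 (Notch4) to 0.53 (Hey1) on HFD, with SEs of 0.15 to 0.34 and 0.13 to 0.29.

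Notch4, an endothelial receptor, was the member past the unadjusted limit. On HFD it was 23.1, 18.2, 21.6 and 21.3 CPM in KO and 24.3, 29.9, 28.1 and 22.5 CPM in WT aortae. Only KO-HFD-1454 and WT-HFD-1448 crossed. The log2 fold change was -0.32 (SE 0.15, edgeR adjusted p = 0.978), with -0.39 to -0.25 when each library was left out in turn. On SFD it was 29.3, 23.8 and 20.4 CPM in KO and 30.5, 28.9 and 20.9 CPM in WT aortae (-0.13, SE 0.17). Endothelial markers, 12 of 15 with counts and Pecam1 the most abundant, summed to 940 to 1307 CPM over the aortae (Cdh5, Esam and Robo4 had no counts), and with their mean as covariate the HFD value of Notch4 was -0.24 (edgeR adjusted p = 0.668). Pericyte markers, led by Rgs5, summed to 3209 to 3880 CPM in KO-HFD and 2325 to 2839 CPM in WT-HFD aortae. Of the 4 tested, 3 were higher in KO and 1 lower (0 called, median 0.16). The paper reports enhanced Rgs5 in KO aortae on SFD, so a sum led by Rgs5 need not follow pericyte number. The part of these markers in the Notch4 value was not tested.

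Hey2 on SFD was 0.44 higher in KO (SE 0.21, edgeR adjusted p = 0.804), and the low WT values were those of WT-SFD-1309 and WT-SFD-1310 given above. The difference was 0.24 to 0.78 on leaving out each library in turn, and 0.74 with library totals in place of TMM. Without the 3 adipocyte-rich aortae it was 0.014 (SE 0.21, edgeR adjusted p = 0.996). Hey1 on HFD was 4.03, 3.37, 3.11 and 6.28 CPM in KO and 2.85, 2.21, 2.39 and 4.08 CPM in WT aortae. This was a log2 fold change of 0.53 (SE 0.29, edgeR adjusted p = 0.999), in groups that overlapped. Leaving out each library in turn gave 0.28 to 0.74.

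**Figure D3:**
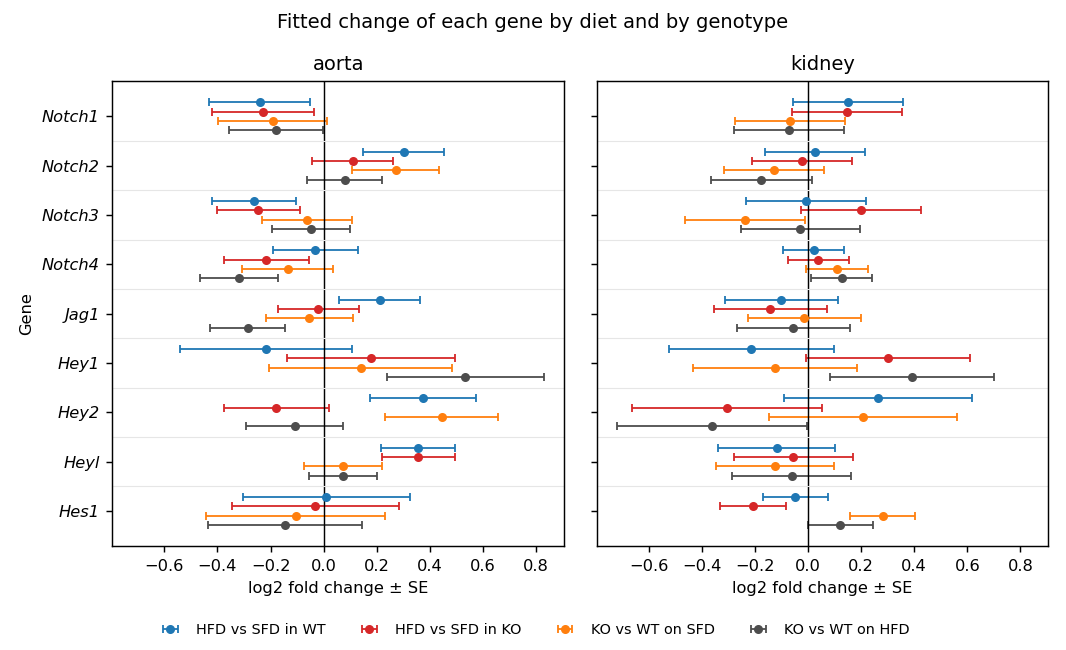
Log2 fold change of each of the 9 Notch pathway genes, with bars of 1 SE, for HFD against SFD in WT and KO and for KO against WT on SFD and HFD, in aorta and kidney. No member was called in any of these 8 comparisons, and the values lay between -0.32 and 0.53 in aorta and between -0.36 and 0.39 in kidney.

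The rest of the pathway was described from 46 further genes, of which 37 were tested in aorta. Adam10, Aph1b, Aph1c and Maml2 had no counts in either organ and are not analysed here, and Dll3, Hes5, Hes7, Dlk1 and Dlk2 did not pass the filter in aorta. At the adjusted limit 1 of 37 was called for diet averaged over genotypes, against 3.79% of all genes, and 0 in the other 6 comparisons. The exception was Dtx3, a Deltex family protein of the E3 ligase type. It was 51.8, 47.4 and 55.2 CPM in WT-SFD, 58.9, 63.6, 74.1 and 59.8 in WT-HFD, 41.4, 46.7 and 50.2 in KO-SFD and 58.6, 58.4, 52.7 and 57.7 CPM in KO-HFD aortae. HFD exceeded SFD without overlap in both genotypes, as groups were apart for 8.96% of all genes in WT and 7.04% in KO. Dtx3 rose by 0.31 (SE 0.076, edgeR adjusted p = 0.0357), with 0.32 in WT (edgeR adjusted p = 0.142) and 0.30 in KO (edgeR adjusted p = 0.595). Without the 3 adipocyte-rich aortae it was 0.23 (edgeR adjusted p = 0.835), so the call did not hold there, and it was also lost on leaving out any 1 of 12 of the 14 aortae, with the direction kept.

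Among the sugar transferases, which modify Notch receptors and tune their choice of ligand, Mfng differed most with diet. It was 17.3, 17.3 and 16.6 CPM in WT-SFD-1309, WT-SFD-1310 and KO-SFD-1319 and 4.37 to 7.09 CPM in the other 11 aortae. The log2 fold change in WT was -1.25 (SE 0.39, edgeR adjusted p = 0.114), and 0.050 without these 3 libraries. DESeq2 called the WT value (-1.24, adjusted p = 0.0469), as did edgeR without WT-SFD-1445 (-1.61, adjusted p = 0.00484) or KO-SFD-1319 (-1.25, adjusted p = 0.0436). Over genotypes Mfng was -0.94 (SE 0.28, edgeR adjusted p = 0.0761). DESeq2 called it (adjusted p = 0.0208), as did edgeR without the low count filter (-0.92, adjusted p = 0.0355). Leaving out each library in turn gave -1.12 to -0.61 (edgeR adjusted p = 0.00416 to 0.289). Without the 3 adipocyte-rich libraries it was 0.038. Neurl1b, a Neuralized family ligase of Notch ligands, went from -0.73 (SE 0.31, edgeR adjusted p = 0.249) in WT to 0.19 in the same way, and was called without WT-SFD-1445 (-1.02, edgeR adjusted p = 0.0273). Leaving out each library in turn gave Neurl1b values of -1.02 to -0.31 in WT. The signs of both genes thus turned when the adipocyte-rich aortae were left out. Aph1a, a γ-secretase subunit, had -0.30 over genotypes (SE 0.099, edgeR adjusted p = 0.109) and -0.32 in KO (SE 0.14, edgeR adjusted p = 0.629), and -0.26 and -0.19 without the 3 aortae.

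Among ligands and targets, Nrarp and Dll4 were lower in KO on HFD without passing the adjusted limit. Nrarp, a target whose product limits Notch signalling, was 3.05, 6.19, 5.19 and 3.41 CPM in KO-HFD and 8.96, 8.73, 7.28 and 9.19 CPM in WT-HFD aortae. These groups did not overlap, as held for 4.18% of all genes, and the log2 fold change was -0.92 (SE 0.25, edgeR adjusted p = 0.647). On SFD the KO aortae had 7.75, 7.65 and 4.43 CPM and the WT aortae 5.72, 9.42 and 7.06 CPM. Dll4, the Delta-like ligand of arterial endothelium, was 1.59, 3.19, 1.76 and 1.77 CPM in KO-HFD and 2.95, 3.21, 5.10 and 5.87 CPM in WT-HFD aortae (-1.02, SE 0.37, edgeR adjusted p = 0.871). Both rested on few reads, 25 to 92 counts per library for Nrarp and 13 to 49 for Dll4. Under the other settings the HFD value was -1.15 to -0.85 for Nrarp and -1.32 to -0.85 for Dll4. Endothelial markers were lower in KO for 8 of 12 on HFD (0 called, median -0.11). Over both diets 9 of 12 were lower (0 called, median -0.18). Their part in the Nrarp and Dll4 values was not tested beyond these settings. Of the nuclear complex, the coactivator Maml3 was 15.1, 10.8 and 14.1 CPM in KO-SFD and 9.26, 9.62 and 10.2 CPM in WT-SFD aortae. The log2 fold change was 0.46 (SE 0.20, edgeR adjusted p = 0.786). It was 0.30 without the adipocyte-rich aortae and 0.75 with library totals in place of TMM. For Maml3 the interaction of diet and genotype was -0.72 (SE 0.26, edgeR adjusted p = 1). Over both diets KO against WT was -0.55 for Nrarp (SE 0.19, edgeR adjusted p = 0.615), -0.67 for Dll4 (SE 0.28, edgeR adjusted p = 0.709) and -0.16 for Dtx3 (SE 0.076, edgeR adjusted p = 0.719; 0.025 with library totals in place of TMM). At the unadjusted limit, 2 of the 37 genes passed for KO against WT on HFD, against 5.04% of all genes, 1 on SFD, against 6.14%, and 3 over diets, against 6.90%. For diet it was 6 in WT, against 16.7%, 2 in KO, against 7.47%, and 6 over genotypes, against 18.5%, and 1 for the interaction, against 4.10%.

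In kidney the same questions were asked of 16 libraries. For HFD against SFD 0 of 9 members were called by edgeR in WT, against 0.911% of all genes (137), and 0 in KO, against 2.30% (346). Averaged over genotypes 0 of 9 were called, against 4.48% (673). At the unadjusted limit no member passed in these 3 comparisons, against 7.90%, 15.8% and 17.9% of all genes. For KO against WT 0 of 9 were called on SFD, against 0.0133%, and 0 on HFD, against 0.00665%. Over both diets 0 of 9 were called, against 0.0133%. Hes1 alone passed the unadjusted limit, on SFD (against 8.37% of all genes) and over both diets (against 5.69%), and no member did on HFD (against 1.65%). For the interaction it was 0 of 9 members and 0% of all genes, with 0 members against 3.23% (486 genes) at the unadjusted limit. DESeq2 called 0 members in all 7 comparisons. Of all genes it called 263 for diet in WT, 695 in KO and 1101 over genotypes, 26 for KO against WT on SFD, 1 on HFD and 15 over diets, and 1 for the interaction. All 9 members overlapped between the groups in each diet and genotype comparison, whereas the groups were apart for 5.01% of all genes for diet in WT, 8.87% for diet in KO, 3.98% for KO against WT on SFD and 1.32% on HFD.

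**Figure D4:**
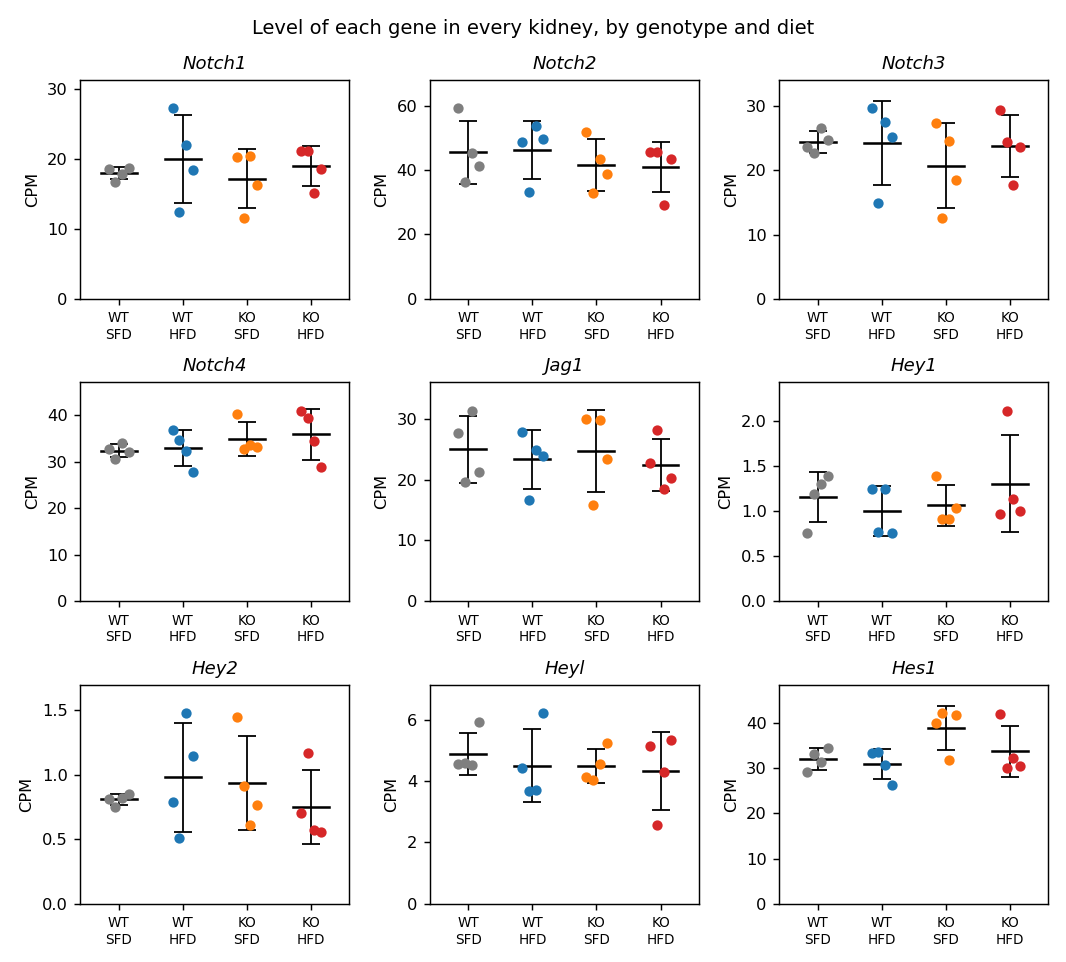
TMM-scaled CPM of the 9 Notch pathway genes in each kidney by group, with the mean and SD as bars. The groups overlapped for all 9 genes; Hes1 was 31.8 to 42.2 CPM in KO-SFD and 29.1 to 34.6 CPM in WT-SFD kidneys.

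Hes1, the most abundant target in kidney, was 39.9, 42.2, 31.8 and 41.9 CPM in KO-SFD and 29.1, 33.2, 31.3 and 34.6 CPM in WT-SFD kidneys. KO-HFD kidneys had 42.0, 30.1, 32.4 and 30.5 CPM and WT-HFD kidneys 33.4, 33.6, 30.7 and 26.4 CPM. In all, 3 of 4 KO-SFD kidneys lay above every WT kidney and KO-SFD-1319 lay among them. On SFD the log2 fold change was 0.28 (SE 0.12, edgeR adjusted p = 0.577) and on HFD 0.12 (SE 0.12, edgeR adjusted p = 1). Over both diets it was 0.20 (SE 0.087, edgeR adjusted p = 0.851), and the interaction was -0.16 (SE 0.17, edgeR adjusted p = 1). Leaving out each library in turn gave 0.24 to 0.37 on SFD. Podocyte markers, all 5 with counts and led by Podxl, summed to 171 to 214 CPM in KO-SFD and 226 to 313 CPM in WT-SFD kidneys, and white adipocyte markers, all 10 with counts and led by Pnpla2, to 311 to 970 and 249 to 482 CPM. All 5 podocyte markers were lower in KO and passed the unadjusted limit (0 called, median -0.49), and 9 of the 10 adipocyte markers were higher (0 called, median 0.88). Their part in the Hes1 value was not tested.

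The receptors Notch1, Notch2 and Notch3 and the ligand Jag1 spread widely between kidneys of a group. Notch1 ran from 11.6 to 20.5 CPM in KO-SFD and from 12.3 to 27.2 CPM in WT-HFD kidneys. Notch3 ran from 12.6 to 27.4 and from 14.9 to 29.7 CPM, Notch2 from 32.8 to 51.8 and from 33.0 to 53.7 CPM, and Jag1 from 15.8 to 30.0 and from 16.6 to 27.8 CPM in the same groups. In KO-HFD kidneys Notch1 ran from 15.1 to 21.1, Notch2 from 29.2 to 45.7, Notch3 from 17.8 to 29.5 and Jag1 from 18.5 to 28.2 CPM. In WT-SFD kidneys Notch2 (36.2 to 59.2 CPM) and Jag1 (19.6 to 31.3 CPM) spread as widely, whereas Notch1 (16.8 to 18.7 CPM) and Notch3 (22.7 to 26.6 CPM) did not. The lowest value of each gene belonged to KO-SFD-1318 in KO-SFD and to WT-HFD-1613 in WT-HFD kidneys.

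This spread followed how long genes stood against short genes in a library. The shift is the median log2 deviation of the 3729 genes with at least 6245 bases of exon minus that of the 3731 genes with at most 2191 bases. It was -0.57 in KO-SFD-1318, -0.26 in WT-HFD-1613, -0.22 in WT-SFD-1446, -0.18 in KO-SFD-1451 and -0.15 in KO-HFD-1520, and 0.019 to 0.28 in the other 11 kidneys. In aorta it ran from -0.083 to 0.070. Over the 16 kidneys log2 CPM correlated with the shift for Notch1 (r = 0.896, permutation p = 1e-05, adjusted over the 9 members 4.5e-05; rho = 0.821, permutation p = 0.00016) and Notch3 (r = 0.892, permutation p = 1e-05, adjusted 4.5e-05; rho = 0.812, permutation p = 0.00022), where 1e-05 is the smallest p that 100000 permutations can give. It did likewise for Notch2 (r = 0.841, permutation p = 4e-05, adjusted 0.00012; rho = 0.868, permutation p = 5e-05) and Jag1 (r = 0.804, permutation p = 9e-05, adjusted 0.0002025; rho = 0.756, permutation p = 0.00088). Without the 2 kidneys furthest from the median shift r was 0.797, 0.746, 0.837 and 0.650 for Notch1, Notch3, Notch2 and Jag1. For the other 5 members the smallest adjusted permutation p of r was 0.223. In the 14 aortae, where the shift was smaller, Jag1 (r = 0.667, permutation p = 0.00793, adjusted 0.0612; rho = 0.701, permutation p = 0.00683, adjusted 0.0307) and Hey2 (r = 0.628, permutation p = 0.0136, adjusted 0.0612; rho = 0.719, permutation p = 0.00527, adjusted 0.0307) passed by rank and not by r, and r was 0.700 and 0.491 without the 2 outermost aortae. These aortic values span the adipocyte-rich libraries. Notch1, Notch2, Notch3 and Notch4 have 14232, 10782, 8089 and 8061 bases of exon and so belong to the long genes themselves. Jag1 has 5827 bases and belongs to neither set. Notch4 did not follow the shift (r = 0.289). The shift is built from the long genes, so the permutation p-values of long members do not show a link particular to them. The share of all long genes with as high an r was not determined. With the shift as covariate no member was called in any kidney comparison, and Hes1 on SFD was 0.25 (edgeR adjusted p = 0.448).

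**Figure D5:**
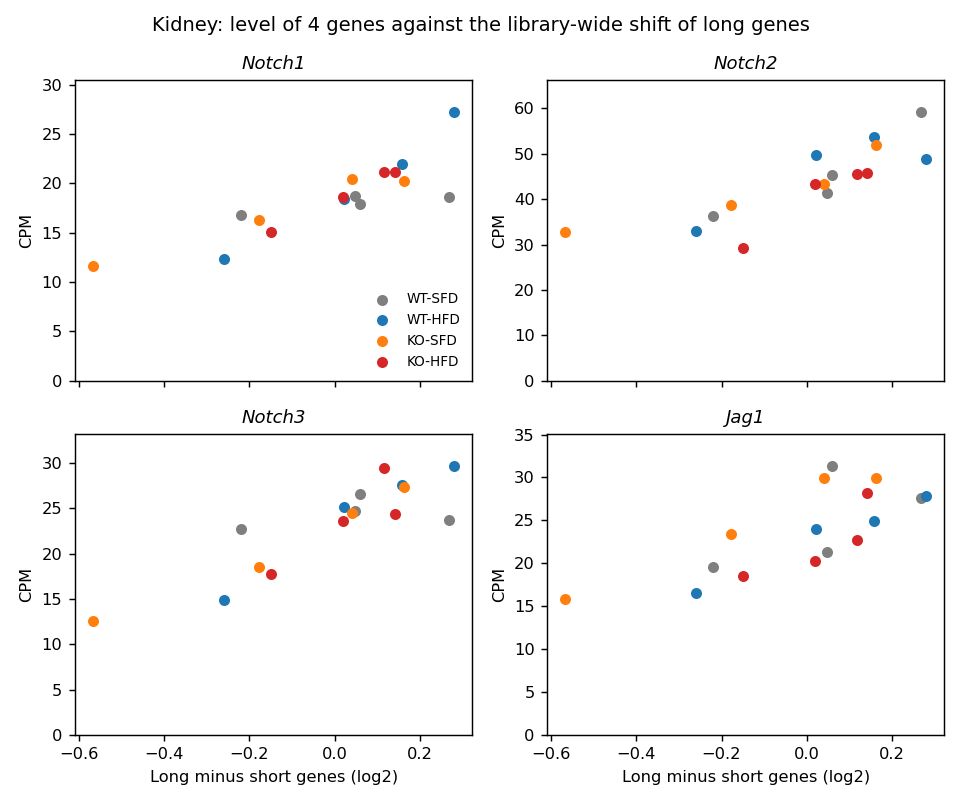
CPM of Notch1, Notch2, Notch3 and Jag1 in the 16 kidneys against the shift of long over short genes (log2), coloured by group. In each panel KO-SFD-1318, at -0.57, and WT-HFD-1613, at -0.26, are among the lowest kidneys, and r is 0.896, 0.841, 0.892 and 0.804.

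Pairs of members were correlated across libraries as well, with permutation p-values adjusted over 36 pairs per organ. In kidney 6 pairs had an adjusted p under 0.05, and they were the 6 pairs among Notch1, Notch2, Notch3 and Jag1. The closest was Notch1 with Notch3 (r = 0.928, permutation p = 1e-05, adjusted p = 0.00036; rho = 0.850, permutation p = 7e-05), with r = 0.818 without the 2 outermost kidneys and 0.944 within groups. The other 5 pairs had r of 0.741 to 0.776 (adjusted permutation p 0.003096 to 0.00696). By rank Notch1 with Jag1 did not pass (rho = 0.600, adjusted permutation p = 0.0914), and without the 2 outermost kidneys r fell to 0.527 for this pair and 0.522 for Notch3 with Jag1. The share of all gene pairs that correlate as closely in kidney was not determined. Each of the 4 genes had a closer gene outside the pathway. These were Sp1 for Notch1 (r = 0.932), Ncoa1 for Notch2 (0.927), Man2a2 for Notch3 (0.935) and Rybp for Jag1 (0.929). All 4 genes also follow the shift of long genes, whose part in these correlations was not tested. The aortae fall into the 3 adipocyte-rich ones and 11 others, so correlations were read in the 11, where 1 of 36 pairs passed: Notch3 with Hey2 (r = 0.836, permutation p = 0.00104, adjusted p = 0.0374; rho = 0.573, permutation p = 0.0706), with r = 0.718 without the 2 outermost aortae. This rests on which aortae are used: over all 14 the pair had r = -0.205 (permutation p = 0.468, adjusted p = 0.629). The pairs that passed over all 14, Notch2 with Hey2 (r = 0.805, permutation p = 0.00076, adjusted p = 0.0274; rho = 0.754, adjusted permutation p = 0.0950) and Notch1 with Heyl (r = -0.763, permutation p = 0.00153, adjusted p = 0.0275; rho = -0.626, adjusted permutation p = 0.147), did not pass by rank and had r of 0.599 and -0.377 in the 11 (adjusted permutation p = 0.435 and 0.660).

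As a description, the genes with the most similar pattern over all libraries of an organ were sought; for Hes1 they are given in kidney only. In the 14 aortae they were Tub (r = 0.904), St5 and Ntf3 for Heyl, Sema5a (0.948), Lrrc17 and Naa16 for Hey2, Prrc2b (0.935), Olfml2a and Zfp46 for Notch2, and Ivd (0.940), 0610012G03Rik and Aox1 for Notch3. For Notch1 they were Mbp (0.937), the myelin protein gene of Schwann cells, Trib1 and Itgb4. For Notch4 they were Tcf15 (0.940), Mcoln1 and Endog, and for Jag1 Usp48 (0.879), Kdm6b and Leng8. Hey1 was closest to Lag3 (0.827), Frmd4b and Prpf40b. These aortic correlations span the adipocyte-rich aortae and carry no test.

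In the 16 kidneys Notch1 and Notch3 were among each other's closest genes: Notch1 to Sp1 (r = 0.932), Notch3 and Ifi203-ps, Notch3 to Man2a2 (0.935), Kmt2d and Notch1, and Notch2 to Ncoa1 (0.927), Dip2a and Scai. Jag1 was closest to Rybp (0.929), Sned1 and Lrba, and Notch4 to Pfkfb3 (0.821), B3glct and Ceacam19. Hes1 was closest to Tmem17 (0.897), Sh2d3c and Tmem79. The scarce Hey genes had weaker neighbours, with Syt11 (0.854), Armc2 and Tnfrsf23 for Hey2, Egr2 (0.785), Aff3 and Npm2 for Hey1, and Coro6 (0.761), Gm28370 and Gm5422 for Heyl.

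Of the 46 further pathway genes, 40 were tested in kidney. In KO kidneys 1 of 40 was called for diet, against 2.30% of all genes, and 0 were called in the other 6 comparisons. The gene was Itch, an E3 ubiquitin ligase that acts on Notch. It was 65.3, 46.8, 64.6 and 62.1 CPM in KO-SFD and 78.1, 86.4, 96.2 and 83.0 CPM in KO-HFD kidneys, with no overlap (8.87% of all genes). Itch rose on HFD in KO by 0.52 (SE 0.13, edgeR adjusted p = 0.0469), close to the limit. The call was lost on leaving out any 1 of 12 of the 16 kidneys. The edgeR adjusted p was 0.145 without KO-SFD-1318 (0.42), the kidney with the lowest value, and 0.0174 with the shift of long genes as covariate (0.43). Podocyte markers summed to 171 to 214 CPM in KO-SFD and 205 to 306 CPM in KO-HFD kidneys, and white adipocyte markers to 311 to 970 and 224 to 382 CPM (median differences 0.47, with 5 of 5 higher and 0 called, and -0.79, with 9 of 10 lower and 1, Lep, called higher). Proximal tubule markers were higher for 5 of 6 (1 called), and loop and distal tubule markers for 2 of 4 (1 called). The part of these cell types in the Itch value was not tested. In WT the values were 87.4, 57.5, 70.3 and 71.1 CPM on SFD and 87.4, 66.6, 79.4 and 76.7 CPM on HFD, and the interaction was 0.41 (SE 0.19, edgeR adjusted p = 1). Over genotypes Itch was 0.32 higher on HFD (SE 0.093, edgeR adjusted p = 0.0629; DESeq2 adjusted p = 0.0261).

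Other genes passed only the unadjusted limit: 1 of 40 for diet in WT against 7.90% of all genes, 3 for diet in KO (Itch among them) against 15.8%, 5 for diet over genotypes against 17.9%, 2 for KO against WT on SFD against 8.37%, 1 on HFD against 1.65% and 2 over diets against 5.69%; for the interaction it was 1, against 3.23%. Neurl1a, a Neuralized family ligase, had the largest values, with -0.69 for diet in WT (SE 0.29, edgeR adjusted p = 0.533) and 0.84 for KO against WT on HFD (SE 0.29, edgeR adjusted p = 1), on 8 to 40 counts per kidney. It was -0.49 for diet over genotypes (SE 0.20, edgeR adjusted p = 0.190) and 0.64 for KO against WT over diets (SE 0.20, edgeR adjusted p = 0.815). Numbl, a Numb family adaptor, was 8.96, 8.45, 7.87 and 7.21 CPM in KO-SFD and 6.77, 7.09, 5.72 and 5.47 CPM in WT-SFD kidneys without overlap, as held for 3.98% of all genes (0.38, SE 0.16, edgeR adjusted p = 0.566). It was 0.27 over diets (SE 0.11, edgeR adjusted p = 0.851) and -0.34 for diet in KO (SE 0.16, edgeR adjusted p = 0.302). Furin, the protease that matures Notch receptors, was 339, 266, 366 and 313 CPM in KO-SFD and 369, 399, 342 and 422 CPM in WT-SFD kidneys (-0.26, SE 0.11, edgeR adjusted p = 0.573). Dtx3, called for diet in aorta, was 115 to 123 CPM in KO-SFD and 135 to 141 CPM in KO-HFD kidneys (0.20, SE 0.075, edgeR adjusted p = 0.202). Dtx4, also of the Deltex family, had -0.47 for diet over genotypes (SE 0.18, edgeR adjusted p = 0.179). The organs were not tested against each other for any of these genes.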

How the data were processed

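The authors deposited 1 table of counts per organ, raw whole numbers per gene with 1 column per mouse, made with cutadapt, TopHat and featureCounts on GRCm38/mm10. All columns were used, 14 aortae and 16 kidneys. A university core unit sequenced the aortae and a company the kidneys. Genes of chromosomes 9, X, Y and MT and some of chromosome 8 had no counts and are not analysed here.

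Counts were scaled by TMM, filtered by filterByExpr and fitted per organ with edgeR 4.0.16 (R 4.3.3), glmQLFit and glmQLFTest, 1 coefficient per group. The p-values were adjusted by Benjamini-Hochberg over all genes tested, with a limit of 0.05. They measure the spread between single mice. Comparisons share groups, so they are not independent. Levels between genes were taken per kilobase of exon (GENCODE vM21, in which 40254 of 41128 genes were found). Correlations used log2 CPM (prior count 2) and 100000 permutations (scipy 1.17.1); promoter sequences are from RefSeq.

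Members and lists were chosen with earlier results of these data known. Statistics of a member are printed where the unadjusted p was under 0.05 or the groups did not overlap, of other pathway genes where the adjusted p was under 0.05 or the unadjusted p was under 0.05 and among the 3 smallest; further statistics of Hey2, Notch2, Hes1, Hey1 and Notch4 were chosen after the values were seen. Fits were repeated with DESeq2 1.42.0, RLE factors, library totals, no filter, a limit of 0.001, only the groups compared, marker covariates, and without each library. The fits without adipocyte-rich aortae and with the long gene shift were chosen after seeing the data. The script was tested on simulated data.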

Additional observations from a re-analysis of the deposited data

Results flagged for a closer look

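Each group of 4 libraries was checked for 1 library far from the other 3, by Dixon's test at the 95% level, which by chance picks about 1 in 20 groups; 6 of the 54 groups were picked. In aorta, Hey2 was highest in KO-HFD-1454, at 78.3 CPM against 58.0 to 59.6 CPM in the other KO-HFD aortae, and lowest in WT-HFD-1442, at 54.7 CPM against 72.6 to 74.3 CPM. In kidney, Notch2 was lowest in KO-HFD-1520, at 29.2 CPM against 43.3 to 45.7 CPM; this kidney had a long gene shift of -0.15 and the highest summed blood markers, 7027 CPM (Hba-a1 the most abundant). Notch4 was highest in KO-SFD-1303, at 40.3 CPM against 32.7 to 33.5 CPM. Hey1 was highest in KO-HFD-1504, at 2.12 CPM on 49 counts, and Heyl in WT-SFD-1695, at 5.91 CPM on 132 counts.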

How the results depend on the processing

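Within an organ no paired analysis was possible because the labels number no replicates across groups. The numbers used here follow accession order. The 3 mice that gave both organs could pair only a comparison of the organs, which was not tested. No member was called in any of the 14 comparisons, and the count stayed at 0 under every alternative but these: for diet averaged over genotypes in aorta DESeq2 called 1 (Heyl) and leaving out 1 library gave 0 to 1, and for diet in WT aortae leaving out 1 library gave 0 to 2. With library totals in place of TMM the median of all aortic genes shifted by 0.11 for diet in WT, -0.11 in KO and 0.29 for KO against WT on SFD, and in the kidney by at most 0.02 in size. The sign turned for Dtx3, KO against WT over diets in aorta (-0.16, and 0.025 with library totals), and, without the adipocyte-rich aortae, for Mfng in WT (0.050) and over genotypes (0.038) and for Neurl1b (0.19), Hey2 (-0.12) and Notch2 (-0.0054) in WT; the cause was not tested.

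The number of all aortic genes called for diet over genotypes was 561 with edgeR, 1007 with DESeq2, 731 without a filter, 131 with the long gene covariate, 3 with the adipocyte covariate, 2 with the endothelial covariate, and 0 both at the limit of 0.001 and without the adipocyte-rich aortae; leaving out 1 library gave 0 to 1856. In kidney it was 673, with 488 to 721 on leaving out 1 library and 148 to 1111 under the other settings. For diet in WT aortae it was 0 (0 to 1801 without 1 library). With the longest transcript as length, levels in aorta were 5.98 FPKM for Notch1, 3.71 for Notch4, 1.45 for Hey1, 25.3 for Hey2 and 10.2 for Hes1, and in kidney 1.95 for Notch1, 5.16 for Notch4, 0.469 for Hey1, 0.340 for Hey2 and 23.1 for Hes1. Dtx3 lost its call in aorta under 7 of 9 other settings and Itch in kidney under 5 of 7, and Egfr in aorta (KO against WT over diets) with library totals (-0.49, edgeR adjusted p = 0.215), each with the direction kept. Depth limits Hey1 in both organs and Hey2 in kidney.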
